A study of Mus musculus with 18 samples.

Results

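The 32 genes described here make, sense, move or store cholesterol. They were chosen by name from the 54354 rows of the deposited count table, and each name matched 1 row. They comprise 18 enzymes of the synthesis pathway and 5 genes that encode or control the sterol-regulated transcription factors. The other members are 4 genes of cholesterol transport and storage, and 5 genes of the liver X receptor (LXR) and efflux arm. All values come from 10 mouse libraries, 5 of a serine-free high fat diet (SF_HFD) and 5 of a serine-free control diet (SF_CD). In both groups the labels name colon, tumor cells and a wild type genotype, without an age or strain of the animals. Serine was absent from the diet in both groups, so the comparison is of dietary fat with serine withheld. The extraction protocol names organoids, whereas the design text of the series describes sorted colon cells, and which of these gave the libraries is unclear. The series holds 8 further libraries, labelled as control diet (CD) and high fat diet (HFD) with no word on serine. They were not used, because 16 of the 32 genes, and Actb, Gapdh, Eef1a1 and Epcam, were at 0 counts in all 8, so that the row names cannot be those of these counts.

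Cells build cholesterol from acetyl-CoA through the mevalonate pathway, which ends in farnesyl diphosphate, and then through squalene and lanosterol. When sterol falls in the endoplasmic reticulum, the escort protein SCAP carries the transcription factors SREBP1 and SREBP2 to the Golgi, where they are cut and released to switch on the synthesis enzymes. INSIG proteins hold SCAP back when sterol is plentiful. When oxysterols accumulate, LXR instead turns on the cholesterol exporters ABCA1 and ABCG1. The intestine is a major site of both cholesterol synthesis and cholesterol absorption.

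SREBP2 acts through sterol regulatory elements that usually lie near a binding site of NF-Y, a factor that reads the box CCAAT. Promoter windows of 300 bases, from 250 before to 50 after the annotated start, were found for 26 of the 32 genes in RefSeq (build GRCm38.p6). The core TCACNCCA, in which N is any base, searched on both strands, was in a window of Hmgcs1, Msmo1 and Srebf2, that is 11.5% of these 26 genes, and of 4.97% of all 27025 genes with a window. CCAAT, also searched on both strands, was in a window of 21 of the 26 genes, and of 14 of the 15 synthesis enzymes that had one, against 41.1% of all genes. The E-box CACGTG was in a window of 6 of the 26 genes and of 8.09% of all genes. These are matches of letters and were not tested as binding sites. The 3 windows with the TCACNCCA core are shown because they belong to the enzyme that makes HMG-CoA (Hmgcs1), to the synthesis gene that stood second in level per exon length in SF_HFD (Msmo1) and to the gene of the transcription factor itself (Srebf2). Capitals mark the TCACNCCA match and each CCAAT, which reads ATTGG where it lies on the opposite strand. No match of the first motif overlapped a CCAAT. The windows are at chr13:119690101-119690400 on the plus strand for Hmgcs1, chr8:64733529-64733828 on the minus strand for Msmo1 and chr15:82147019-82147318 on the plus strand for Srebf2.
Hmgcs1: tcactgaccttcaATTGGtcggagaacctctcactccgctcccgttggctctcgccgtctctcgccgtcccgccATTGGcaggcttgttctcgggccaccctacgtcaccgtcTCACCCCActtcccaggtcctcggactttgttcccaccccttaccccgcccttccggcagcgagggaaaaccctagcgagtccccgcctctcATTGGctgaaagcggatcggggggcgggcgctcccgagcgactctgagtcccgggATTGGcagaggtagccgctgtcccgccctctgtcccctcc
Msmo1: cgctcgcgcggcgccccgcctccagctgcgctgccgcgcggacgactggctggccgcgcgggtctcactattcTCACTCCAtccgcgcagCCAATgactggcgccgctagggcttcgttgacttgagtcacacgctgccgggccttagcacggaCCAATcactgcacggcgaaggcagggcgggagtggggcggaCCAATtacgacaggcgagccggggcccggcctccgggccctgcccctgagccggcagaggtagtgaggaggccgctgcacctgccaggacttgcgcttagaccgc
Srebf2: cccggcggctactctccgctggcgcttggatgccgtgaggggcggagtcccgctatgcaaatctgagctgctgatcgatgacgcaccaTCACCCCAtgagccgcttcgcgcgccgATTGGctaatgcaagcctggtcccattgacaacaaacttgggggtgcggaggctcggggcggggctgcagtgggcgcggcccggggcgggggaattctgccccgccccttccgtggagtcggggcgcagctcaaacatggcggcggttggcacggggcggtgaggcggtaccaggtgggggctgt
Counted from 1 at the 5′ end of the window, the TCACNCCA match began at base 114 in Hmgcs1, 74 in Msmo1 and 89 in Srebf2. Hmgcs1 had 4 CCAAT boxes, Msmo1 had 3 and Srebf2 had 1.

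Total counts ranged from 727610 to 12146933 in SF_HFD and from 499774 to 12841275 in SF_CD. The SF_HFD library 5 and the SF_CD libraries 1 and 5 held under 1000000 counts. Ribosomal RNA took 2.97% to 7.19% of the SF_HFD libraries, 22% and 14.5% of the SF_CD libraries 1 and 5, and 2.08% to 2.4% of the SF_CD libraries 2 to 4. Levels are counts scaled to a library of 1000000 after TMM normalisation (CPM), on which scale 3 counts equal 0.226 to 3.79 CPM in SF_HFD and 0.228 to 6.76 CPM in SF_CD. The labelled colon tumor carried its epithelial markers, since the summed level of Epcam, Cdh1, Krt8, Krt18 and Krt19 was 4022 to 6289 CPM in SF_HFD and 1842 to 4596 CPM in SF_CD. A list of 5 absorptive colonocyte markers summed to 94.7 to 3989 CPM in SF_HFD and 96.8 to 2041 CPM in SF_CD. Of these, Car1 was at 88.5 to 3869 CPM in SF_HFD and 30.6 to 2016 CPM in SF_CD. Krt20 was at 4.15 to 225 CPM in SF_HFD and 4.51 to 59.3 CPM in SF_CD. For Guca2a the levels were 0 to 5.52 CPM in SF_HFD and 4.51 to 35 CPM in SF_CD. Slc26a3 reached at most 0.331 CPM and Aqp8 1.95 CPM in any library. Of the lists for other cell types, the sums of smooth muscle and goblet cell markers did not overlap between the groups, and the other sums did. A list of 5 smooth muscle markers summed to 161 to 255 CPM in SF_HFD and 2.94 to 23.2 CPM in SF_CD (3 of 5 rose by the edgeR test described below). The sum of 5 goblet cell markers was 4.25 to 17.9 CPM in SF_HFD and 22.5 to 85.7 CPM in SF_CD (2 of 5 fell). For 5 fibroblast markers the sums were 58.1 to 129 CPM in SF_HFD and 10.2 to 81.8 CPM in SF_CD, and for 6 leukocyte markers they were 7.37 to 41.7 CPM in SF_HFD and 33.2 to 113 CPM in SF_CD (1 of 6 fell). Of these 6, Cd68 was at 6.68 to 29.8 CPM in SF_HFD and 15.7 to 33.5 CPM in SF_CD. Lyz2 was at 0.691 to 15.2 CPM in SF_HFD and 15.6 to 79.8 CPM in SF_CD. Ptprc reached at most 1.28 CPM, Csf1r 1.95 CPM and Fcer1g 5.84 CPM in any library. The macrophage marker Adgre1 was at 0 in SF_CD and at most 0.0925 CPM in SF_HFD. The 3 endothelial markers summed to 0 to 4.08 CPM in SF_HFD and 1.75 to 31.6 CPM in SF_CD. Of 3 adipocyte markers, Adipoq and Plin1 were at 0 in all 10 libraries. Fabp4, the remaining adipocyte marker, was at 2.07 to 7.78 CPM in SF_HFD and 0 to 9.81 CPM in SF_CD. The part of these cell types in the results below was not tested. In bulk RNA, fewer cells of a type and less RNA per cell cannot be told apart.

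None of the cholesterol genes passed the test for a difference between the diets over all 10 libraries. Of the 32, 28 had enough counts to be tested, and 0 were called higher or lower in SF_HFD (edgeR quasi-likelihood test, threshold 0.05 after Benjamini-Hochberg adjustment over 11780 genes). Of all genes tested, 0.323% were called. At an unadjusted p under 0.05, 1 of the 28 was lower (Hmgcs1), against 6.73% of all genes, and DESeq2 and limma-voom also called 0. Log2 fold changes of SF_HFD over SF_CD ran from -0.72 to 0.62, with 13 positive and 15 negative and a median of -0.02, beside a median of 0.02 over all genes tested. For 10 of the 28 the 95% interval lay within a 2-fold change in either direction, and for the other 18 it reached beyond. No gene of the 28 had groups that did not overlap, against 3.65% of all genes tested (1.42% lower in SF_HFD). The summed level of the 18 synthesis enzymes was 3042 ± 407 CPM in SF_HFD libraries and 3392 ± 1216 CPM in SF_CD libraries (SD, n = 5 each).

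**Figure D1:**
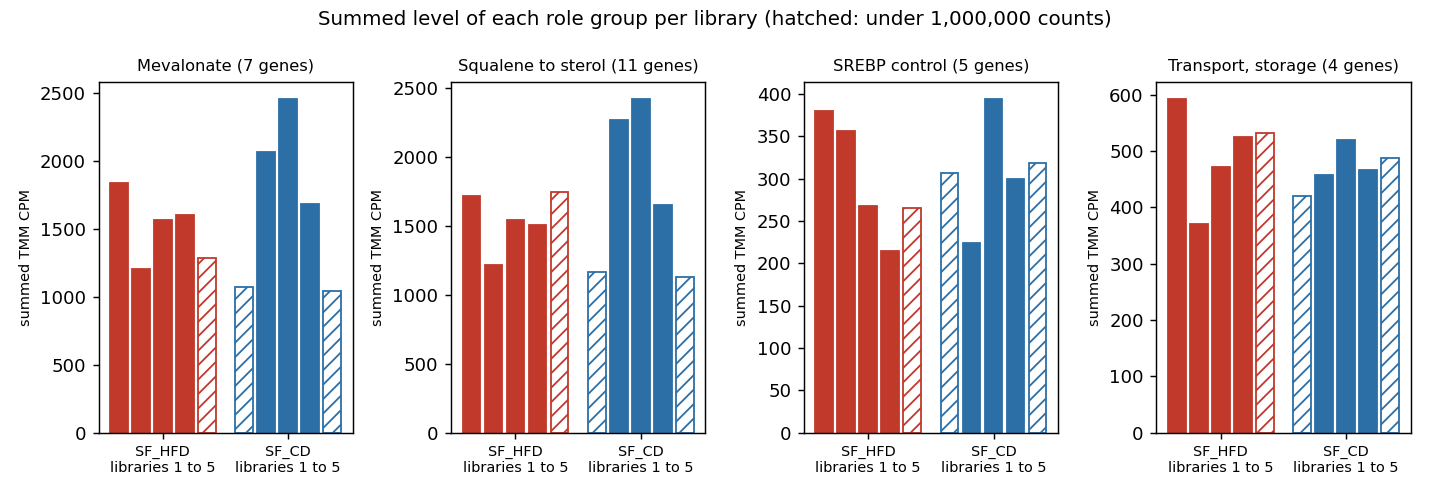
Summed TMM CPM of 4 role groups in each library, with SF_HFD on the left and SF_CD on the right; each bar is 1 library and hatched bars are libraries under 1000000 counts. The mevalonate and sterol sums are lowest in the SF_CD libraries 1 and 5 and highest in the SF_CD libraries 2 and 3, while the SF_HFD libraries lie between them.

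In the mevalonate part of the pathway, Hmgcs1 came closest to the threshold. This gene, HMG-CoA synthase 1 (mm10 chromosome 13, 119690379 to 119708260), makes HMG-CoA, the precursor of mevalonate. It was at 248, 211, 183, 225 and 203 CPM in the SF_HFD libraries 1 to 5, against 667, 252, 315, 289 and 247 CPM in the SF_CD libraries 1 to 5. The SF_CD library 1 stood far above all others, and the lowest SF_CD library lay just inside the SF_HFD range. The log2 fold change was -0.72 ± 0.33 (SE; 95% interval -1.43 to -0.02; edgeR adjusted p = 0.412), and it was -0.40 without the 3 libraries under 1000000 counts.

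Fdps, farnesyl diphosphate synthase (chromosome 3, 89093588 to 89101959), had the highest level of the pathway. It was at 975, 556, 890.1, 829 and 514 CPM in the SF_HFD libraries 1 to 5, against 151, 1074, 1320.5, 676 and 411 CPM in the SF_CD libraries 1 to 5. The SF_CD values spanned the SF_HFD values on both sides, and the log2 fold change was 0.05 ± 0.45 (edgeR adjusted p = 0.983). An overlapping transcript on the same strand, Gm43738, shares 1068 of the 4341 words of 31 bases in the annotated Fdps transcripts, so the division of reads between them is uncertain. With Gm43738 added, the level was 744 to 1373 CPM in SF_HFD and 216 to 1777 CPM in SF_CD.

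The other mevalonate genes had log2 fold changes of -0.50 to 0.09. Acat2, which joins acetyl-CoA units, was at 151 ± 50.9 CPM in SF_HFD libraries and 211 ± 101 CPM in SF_CD libraries (SD, n = 5 each). It shares 43.7% of its 31-base words with Acat3, but Acat3 held at most 0.0925 CPM in any library. Mvk, mevalonate kinase, was at 39.3 ± 12.2 CPM in SF_HFD libraries and 35.9 ± 21.3 CPM in SF_CD libraries. Pmvk, which adds the next phosphate, was at 75.2 ± 17.3 CPM in SF_HFD libraries and 88.8 ± 37.9 CPM in SF_CD libraries. Mvd, which removes the carboxyl group, was at 31.6 ± 6.82 CPM in SF_HFD libraries and 30.1 ± 15.5 CPM in SF_CD libraries. Idi1, the isopentenyl diphosphate isomerase, was at 232 ± 44.0 CPM in SF_HFD libraries and 216 ± 84.6 CPM in SF_CD libraries. In these 5 genes the difference of the means was smaller than the larger SD.

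Among the 11 enzymes from squalene to cholesterol, 8 had negative and 3 positive log2 fold changes, and none passed the test. Sc5d, the sterol C5 desaturase, had the largest difference of this group. It was at 197, 65.0, 142, 163 and 134 CPM in the SF_HFD libraries 1 to 5, against 232, 238, 232, 204 and 195 CPM in the SF_CD libraries 1 to 5. The SF_CD libraries lay close together, and only the SF_HFD library 1 reached into their range. The log2 fold change was -0.65 ± 0.33 (95% interval -1.34 to 0.04; edgeR adjusted p = 0.454).

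Msmo1, the sterol C4 methyl oxidase (chromosome 8, 64718139 to 64733792), was at 503, 357, 418, 397 and 599 CPM in the SF_HFD libraries 1 to 5, against 277, 703, 809, 451 and 204 CPM in the SF_CD libraries 1 to 5. All 5 SF_HFD values lay inside the SF_CD range (log2 fold change -0.11 ± 0.37, edgeR adjusted p = 0.945). Fdft1, squalene synthase, was also lowest within SF_CD in libraries 1 and 5. It was at 295, 159.9, 279.5, 231 and 313 CPM in the SF_HFD libraries 1 to 5, against 171, 415, 398, 286 and 191 CPM in the SF_CD libraries 1 to 5, and its log2 fold change was -0.20 ± 0.34 (edgeR adjusted p = 0.873). Its gene overlaps Ctsb on the opposite strand, and whether the counting used strand is not given in the sources used here. Sqle, squalene epoxidase and a control point of the pathway, was at 107, 97.9, 89.1, 84.3 and 115 CPM in the SF_HFD libraries 1 to 5, against 63.1, 124, 107, 77.6 and 62.3 CPM in the SF_CD libraries 1 to 5. Its groups overlapped, and the interval of its log2 fold change was -0.50 to 0.84.

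Lss, lanosterol synthase, was at 33.5 ± 8.90 CPM in SF_HFD libraries and 49.5 ± 28.2 CPM in SF_CD libraries. Cyp51, the lanosterol demethylase, was at 284 ± 51.7 CPM in SF_HFD libraries and 249.7 ± 88.9 CPM in SF_CD libraries. Tm7sf2, a sterol C14 reductase, was at 27.9 ± 7.94 CPM in SF_HFD libraries and 37.2 ± 13.7 CPM in SF_CD libraries. Next in the pathway come Nsdhl and Hsd17b7, which complete the removal of the C4 methyl groups. Nsdhl was at 81.4 ± 19.0 CPM in SF_HFD libraries and 116 ± 67.4 CPM in SF_CD libraries, and Hsd17b7 at 51.4 ± 9.30 CPM in SF_HFD libraries and 74.6 ± 43.0 CPM in SF_CD libraries. Ebp, which moves the double bond of the sterol ring, differed little in its mean, at 101 ± 10.3 CPM in SF_HFD libraries and 101 ± 72.5 CPM in SF_CD libraries. Dhcr7, the last reductase before cholesterol, was at 18.2 ± 11.5 CPM in SF_HFD libraries and 14.2 ± 4.85 CPM in SF_CD libraries. In 6 of these 7 genes, Dhcr7 being the exception, the SF_CD libraries spread more widely than the SF_HFD libraries.

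**Figure D2:**
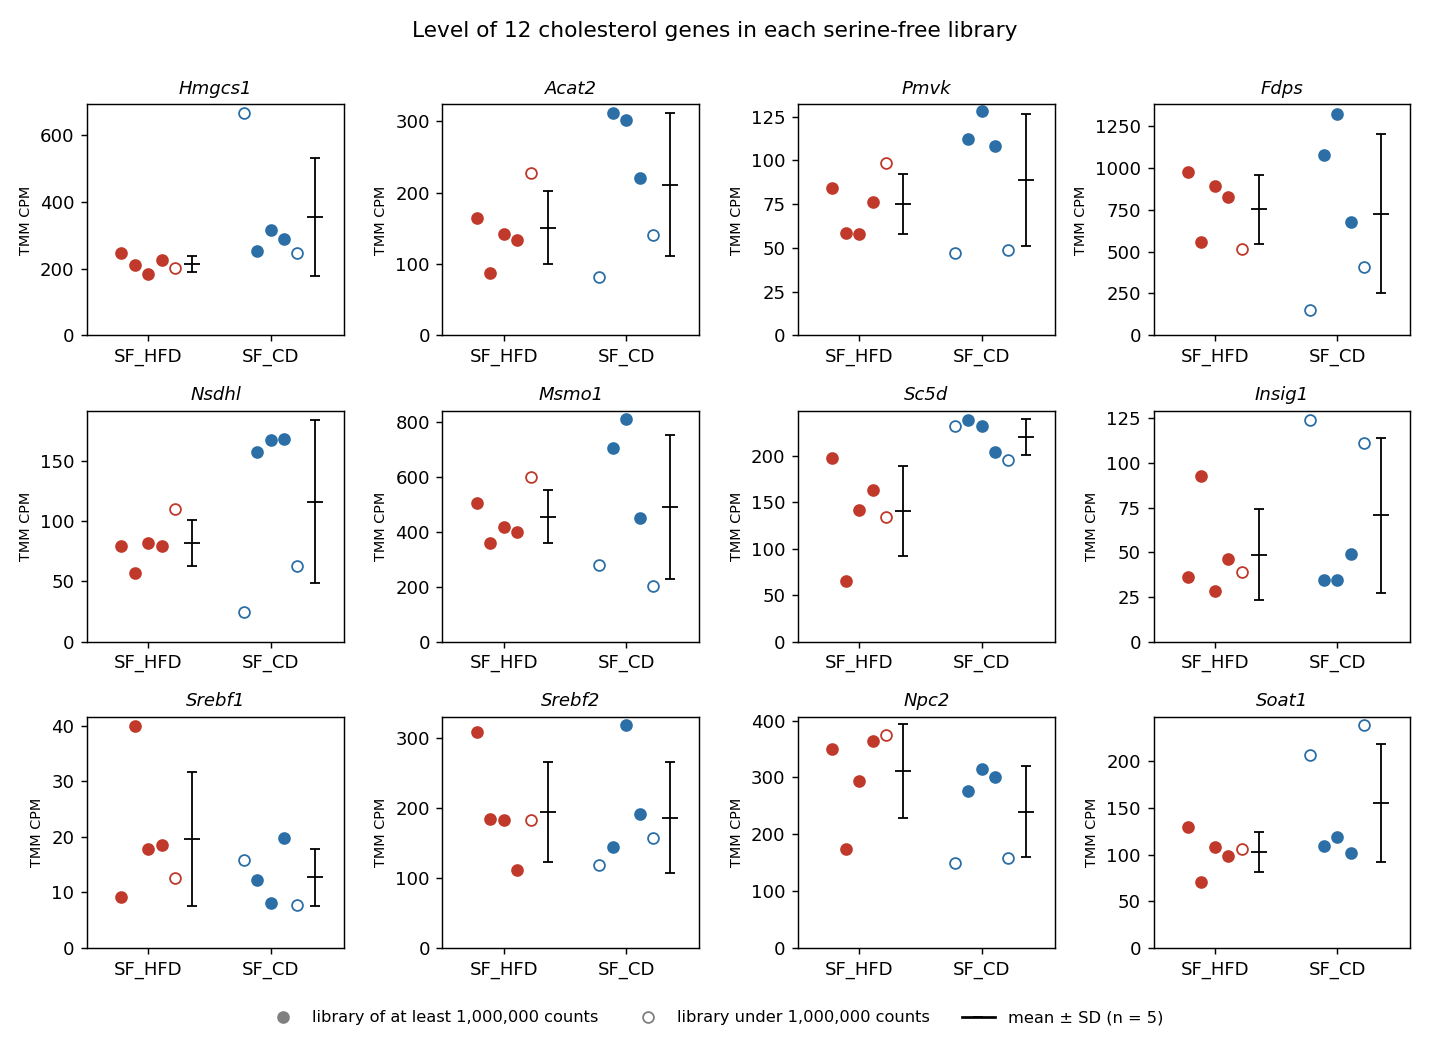
TMM CPM of 12 cholesterol genes, with 1 point per library, SF_HFD on the left and SF_CD on the right of each panel; open points are libraries under 1000000 counts and black bars are the mean ± SD of 5 libraries. Within SF_CD, the open points lie above the filled ones for Insig1 and Soat1. They lie below them for Acat2, Pmvk, Fdps, Nsdhl, Msmo1 and Npc2. For Hmgcs1, Sc5d, Srebf1 and Srebf2 the open points are not both above or both below the filled ones.

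Within SF_CD, the 2 libraries under 1000000 counts stood apart for most synthesis enzymes. For 13 of the 18 synthesis enzymes both the SF_CD libraries 1 and 5 lay below all of the SF_CD libraries 2, 3 and 4, against 34.4% of all genes tested. The SF_CD library 1 was the lowest of all 10 libraries for 10 of the enzymes and the SF_CD library 5 for 4, while the SF_CD library 3 was the highest for 7. Of the 28 genes tested, 5 went the other way, with both libraries above the other 3 (Hsd17b7, Insig1, Insig2, Npc1 and Soat1). Of all 11780 genes tested, 2215 did so, a similar share. Hmgcs1 and Lss were highest of all 10 libraries in the SF_CD library 1. These libraries also differed in other transcripts. The mitochondrial share of counts was 5.43% to 6.6% in SF_HFD, 8.29% and 9.82% in the SF_CD libraries 1 and 5, and 3.88% to 5.5% in the SF_CD libraries 2 to 4. The nuclear RNA Malat1 held 0.526% to 1.18% of counts in SF_HFD, 12.1% in SF_CD library 1 and 0.409% to 1.66% in the other 4 of SF_CD. The part that depth, ribosomal RNA, mitochondrial RNA and Malat1 had in these values was not tested.

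**Figure D3:**
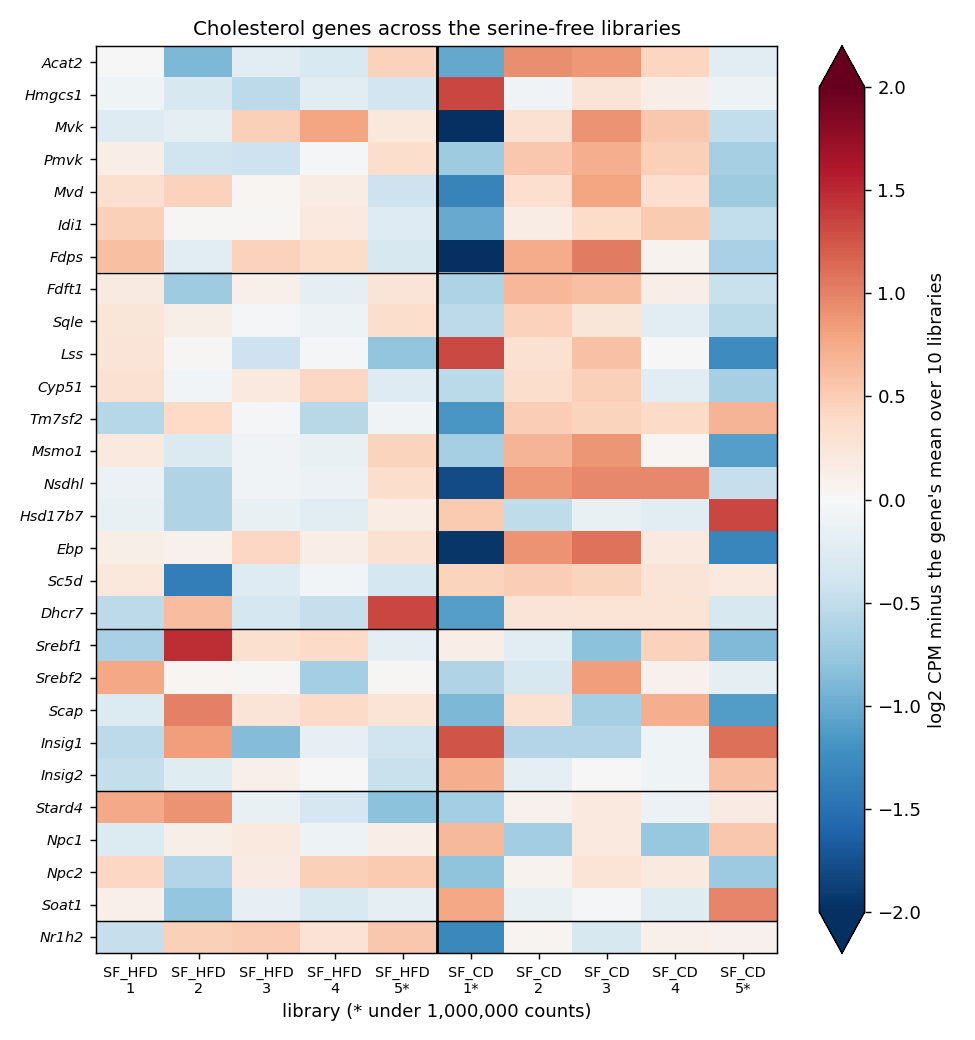
Heat map of log2 CPM minus the mean of each gene over 10 libraries, for the 28 genes tested (rows, in pathway order) and the SF_HFD and SF_CD libraries (columns; * marks those under 1000000 counts). Most enzymes are low in the SF_CD libraries 1 and 5 and high in the SF_CD libraries 2 and 3, and the control genes Insig1 and Insig2 are higher in the SF_CD libraries 1 and 5 than in the SF_CD libraries 2 to 4.

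With the 3 libraries under 1000000 counts left out, the synthesis enzymes leaned lower in SF_HFD, without any passing the test. In the 4 SF_HFD and 3 SF_CD libraries that remained, 17 of the 18 enzymes had a negative log2 fold change, with Hsd17b7 at 0.01 the exception, and the median was -0.39, beside 0.04 over all genes tested. After adjustment 0 of the 18 were called by the edgeR quasi-likelihood test, against 0.205% of 12653 genes. At an unadjusted p under 0.05, 6 of the 18 were lower (Nsdhl, Acat2, Pmvk, Msmo1, Ebp and Fdft1), against 7.97% of all genes. The groups did not overlap for 5 enzymes, all lower in SF_HFD (Acat2, Hmgcs1, Pmvk, Nsdhl and Sc5d), against 9.36% of all genes lower and 18.6% in either direction. The summed level of the 18 enzymes was 3046 ± 470.4 CPM in SF_HFD (SD, n = 4) and 4183 ± 780.2 CPM in SF_CD (n = 3). These enzymes share their libraries and are not independent of each other.

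Nsdhl, Acat2 and Pmvk had the largest differences in these 7 libraries and were singled out after their values were seen. Nsdhl (chromosome X, 72918557 to 72958514) was at 79.4, 56.5, 82.0 and 79.1 CPM in the SF_HFD libraries 1 to 4, against 157, 167 and 168 CPM in the SF_CD libraries 2 to 4. Its log2 fold change was -1.14 ± 0.21 (95% interval -1.61 to -0.67; edgeR adjusted p = 0.103). Every one of these SF_HFD libraries was lower than every one of these SF_CD libraries, but the 3 shallow libraries broke the separation, with 109.9 CPM in the SF_HFD library 5 and 24.8 and 62.3 CPM in the SF_CD libraries 1 and 5. Acat2 (chromosome 17, 12942890 to 12960747) was at 164, 88.0, 142 and 133 CPM in the SF_HFD libraries 1 to 4, against 312, 302 and 221 CPM in the SF_CD libraries 2 to 4 (log2 fold change -1.08 ± 0.26, edgeR adjusted p = 0.155). In the shallow libraries it was at 227 CPM in SF_HFD and at 81.2 and 140.2 CPM in SF_CD, again in the opposite order. Pmvk was at 84.4, 58.8, 57.8 and 76.3 CPM in the SF_HFD libraries 1 to 4, against 112, 128 and 108 CPM in the SF_CD libraries 2 to 4 (log2 fold change -0.74 ± 0.22, edgeR adjusted p = 0.185). The shallow libraries had Pmvk at 98.5 CPM in SF_HFD and at 47.3 and 48.7 CPM in SF_CD, also in the opposite order. With all 10 libraries the log2 fold changes of Nsdhl, Acat2 and Pmvk were -0.54, -0.50 and -0.27.

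**Figure D4:**
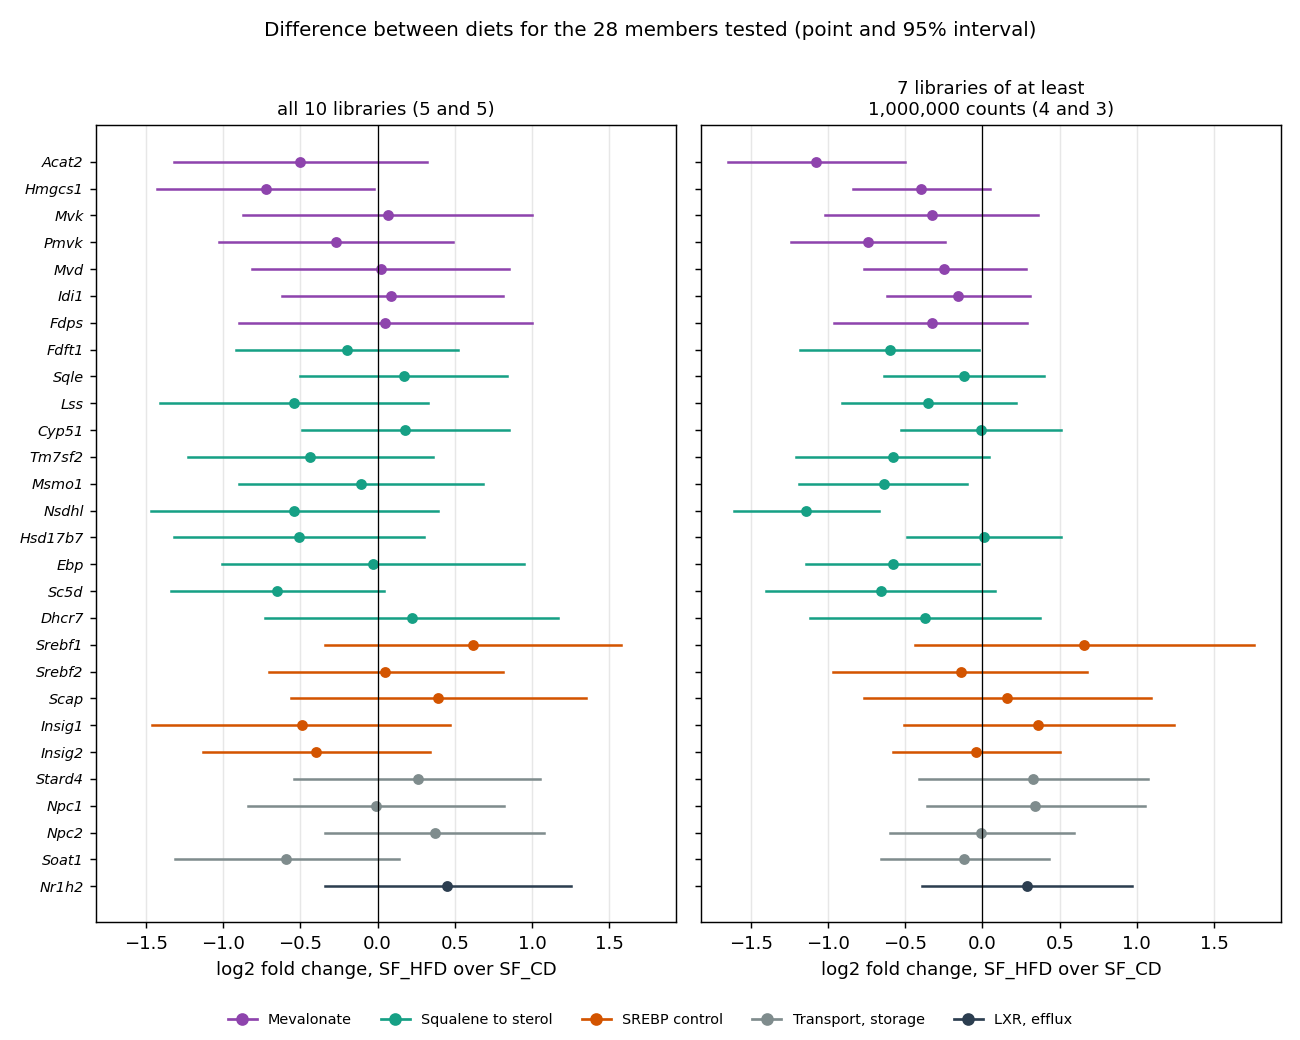
Log2 fold change of SF_HFD over SF_CD with its 95% interval for the 28 genes tested, coloured by role, in all 10 libraries (left) and in the 7 libraries of at least 1000000 counts (right). On the left the points lie between -0.72 and 0.62 and every interval but that of Hmgcs1 crosses 0; on the right the mevalonate and sterol enzymes lie at or below 0.01, and the other roles lie on both sides of 0.

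The genes that encode or control SREBP did not pass the test with either set of libraries. In each set, 3 log2 fold changes were positive and 2 negative. Srebf2, which encodes SREBP2 (chromosome 15, 82147181 to 82205379), was at 309, 185, 184, 112 and 184 CPM in the SF_HFD libraries 1 to 5, against 119, 144, 319.9, 192 and 158 CPM in the SF_CD libraries 1 to 5. Each group had 1 library well above its others, and the groups overlapped over nearly their whole range (log2 fold change 0.05 ± 0.36, edgeR adjusted p = 0.973). Srebf1, which encodes SREBP1, a driver of fatty acid as well as sterol genes, was at 9.14, 39.9, 17.8, 18.6 and 12.6 CPM in the SF_HFD libraries 1 to 5, against 15.8, 12.2, 8.13, 19.7 and 7.79 CPM in the SF_CD libraries 1 to 5. The SF_HFD library 2 was the highest, and the interval of the log2 fold change, 0.62 ± 0.45, was -0.34 to 1.58 (edgeR adjusted p = 0.636).

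Insig1, an SREBP target whose product restrains SCAP, was at 36.2, 92.6, 28.5, 46.0 and 39.2 CPM in the SF_HFD libraries 1 to 5, against 124, 34.5, 34.6, 48.9 and 111 CPM in the SF_CD libraries 1 to 5. Its 3 high values were the SF_HFD library 2 and the SF_CD libraries 1 and 5, while the log2 fold change, -0.49 over 10 libraries (edgeR adjusted p = 0.723), was 0.36 over the 7 deeper ones. Insig2, its paralog, was at 22.6 ± 4.08 CPM in SF_HFD libraries and 30.9 ± 9.33 CPM in SF_CD libraries. Scap was at 11 ± 3.60 CPM in SF_HFD libraries and 7.59 ± 4.35 CPM in SF_CD libraries. The summed level of the 5 control genes was 296 ± 69.0 CPM in SF_HFD libraries and 308 ± 60.6 CPM in SF_CD libraries (SD, n = 5 each).

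Genes of transport and storage likewise did not pass the test. Npc2, which hands cholesterol from the lysosome lumen to NPC1, was at 349.9, 174, 293, 364 and 374 CPM in the SF_HFD libraries 1 to 5, against 149, 276, 315, 300.4 and 158 CPM in the SF_CD libraries 1 to 5. The groups overlapped, and the low SF_CD values were again libraries 1 and 5 (log2 fold change 0.37 ± 0.33, edgeR adjusted p = 0.719). Soat1, which esterifies cholesterol for storage, was at 129.9, 70.7, 108, 98.3 and 106 CPM in the SF_HFD libraries 1 to 5, against 207, 109, 119, 102 and 239 CPM in the SF_CD libraries 1 to 5. The high values were the SF_CD libraries 1 and 5, and the log2 fold change was -0.59 ± 0.34 with all libraries (edgeR adjusted p = 0.528) and -0.12 with the 7 deeper ones. Npc1, the lysosomal membrane exporter, was at 17.6 ± 2.27 CPM in SF_HFD libraries and 18.7 ± 7.89 CPM in SF_CD libraries. Stard4, a cytosolic sterol carrier, was at 67.1 ± 33.2 CPM in SF_HFD libraries and 56.1 ± 12.3 CPM in SF_CD libraries.

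Apart from Nr1h2, the genes of the LXR and efflux arm had few counts. Nr1h2, which encodes the widely expressed LXR-beta, was at 11.9, 22.8, 23.5, 20.2 and 24.0 CPM in the SF_HFD libraries 1 to 5, against 6.76, 17.0, 13.2, 17.7 and 17.5 CPM in the SF_CD libraries 1 to 5. It was the only gene of this arm that could be tested, and its groups overlapped (log2 fold change 0.45 ± 0.37, edgeR adjusted p = 0.686). Nr1h3, which encodes LXR-alpha, had 10 counts in all SF_HFD libraries together and 7 in SF_CD. Abca1, the exporter of cholesterol to apolipoproteins, had 2, 0, 0, 0 and 0 counts in the SF_HFD libraries 1 to 5, against 0, 2, 0, 34 and 6 counts in the SF_CD libraries 1 to 5. Abcg1, the exporter to high density lipoprotein, had 2 counts in SF_HFD, all in library 1, and 61 in SF_CD, with 4, 16 and 41 in libraries 2, 3 and 4. Mylip, an LXR target that marks lipoprotein receptors for breakdown, had 29 counts in SF_HFD and 93 in SF_CD, of which 77 were in the SF_CD library 4. These 4 genes had too few counts to be tested. On the CPM scale, Abca1 was at most 0.181 in SF_HFD, against 0, 0.22, 0, 2.58 and 11.7 in the SF_CD libraries 1 to 5. Mylip was at most 1.02 CPM in SF_HFD, against 2.25, 0.551, 0.42, 5.84 and 13.6 CPM in the SF_CD libraries 1 to 5. For both genes the groups overlapped, over 10 libraries and over the 7 deeper ones. Their values in the SF_CD library 5 were 6 counts of Abca1 and 7 of Mylip, where 3 counts equal 5.84 CPM. Abcg1 was at most 0.181 CPM in SF_HFD, against 0.441, 2.24 and 3.11 CPM in the SF_CD libraries 2, 3 and 4, so that its groups overlapped over 10 libraries but not over the 7 deeper ones. With no filter on low counts all 32 genes were tested, and 0 were called.

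Levels per exon length, which allow genes to be compared, spanned the range from Fdps to Scap among the genes tested. Fdps stood first, at 179 ± 48.9 CPM per kb in SF_HFD libraries and 173 ± 113 CPM per kb in SF_CD libraries (SD, n = 5 each). Msmo1 was at 74.0 ± 15.7 CPM per kb in SF_HFD libraries, where it was second, and at 79.6 ± 42.7 CPM per kb in SF_CD libraries, where Acat2, at 83.1 CPM per kb, stood between it and Fdps. In SF_HFD the means of Idi1 (66.1 CPM per kb), Cyp51 (64.3), Fdft1 (60.5), Acat2 (59.4) and Npc2 (57.2) came next and differed by less than their SDs of 11.7 to 20 CPM per kb. The lowest synthesis enzymes in SF_HFD were Lss at 3.10 ± 0.825 and Dhcr7 at 3.13 ± 1.97 CPM per kb. Srebf2 was at 27.1 ± 9.86 CPM per kb in SF_HFD and 26.0 ± 11 in SF_CD, above Srebf1 at 3.48 ± 2.12 CPM per kb in SF_HFD and 2.26 ± 0.901 in SF_CD. Insig1 was at 15.7 ± 8.23 CPM per kb in SF_HFD and 22.8 ± 14.0 in SF_CD, and Insig2 at 6.51 ± 1.18 CPM per kb in SF_HFD and 8.89 ± 2.69 in SF_CD. Npc2 and Npc1, which work in sequence at the lysosome, were at 57.2 ± 15.3 and 1.55 ± 0.200 CPM per kb in SF_HFD.

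**Figure D5:**
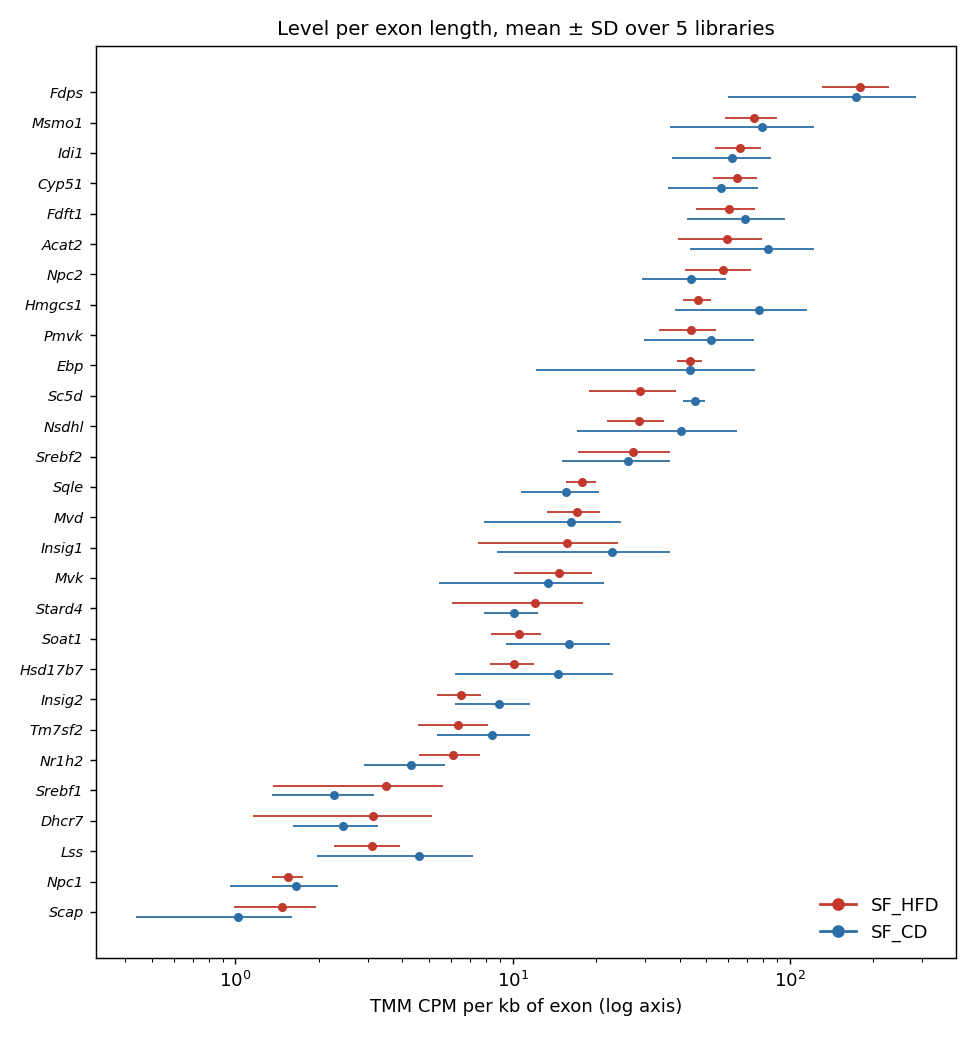
Mean ± SD over 5 libraries of TMM CPM per kb of annotated exon (log axis) for the 28 genes tested, ordered by the SF_HFD mean, with SF_HFD above SF_CD in each row. Fdps is highest and Scap lowest, and the bars of the 2 diets overlap for every gene but Sc5d.

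Other genes of sterol metabolism did not pass the test either. Of 37 such genes, among them the SREBP proteases, sterol-dependent ubiquitin ligases, prenyl transferases, sterol carriers and oxysterol enzymes, 29 were tested and 0 were called, against 0.323% of all genes (edgeR quasi-likelihood test). Their median log2 fold change was 0.20, with 18 positive and 11 negative. Over all 10 libraries, the smallest unadjusted p, and the only one under 0.05 among them, belonged to Erlin1. This gene takes part in the sterol-regulated breakdown of membrane proteins. It was at 8.78, 13.1, 4.62, 6.19 and 3.79 CPM in the SF_HFD libraries 1 to 5, against 0, 5.51, 0.841, 3.64 and 0 CPM in the SF_CD libraries 1 to 5 (log2 fold change 1.45 ± 0.65, edgeR adjusted p = 0.397). Fnta, a subunit of the enzyme that attaches farnesyl groups to proteins, was at 34.1 ± 13.3 CPM in SF_HFD libraries and 16.5 ± 10.9 CPM in SF_CD libraries (edgeR adjusted p = 0.449). Ggps1, which extends farnesyl to geranylgeranyl diphosphate, was at 51.0 ± 11.7 CPM in SF_HFD libraries and 84.8 ± 38.7 CPM in SF_CD libraries (edgeR adjusted p = 0.466).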

How the data were processed

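The authors deposited 1 table of estimated counts per gene, as whole numbers that needed no rounding, for 18 libraries. They were made with Salmon 1.3.0 on mm10, per the submitters' processing notes, from poly(A)-selected directional libraries, per the labels' protocols. No source used here gives the annotation release or a filter. Columns were matched by the library name in each description, and all 18 were matched. The 8 CD and HFD columns entered the check of row names and no comparison. Salmon divides shared reads by estimate, so near-identical copies are uncertain. Coordinates, exon lengths and shared 31-base words come from GENCODE M21 of the same build, which holds all 32 members.

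The test was edgeR 4.0.16 (quasi-likelihood, robust, TMM, filterByExpr, R 4.3.3) on the 10 serine-free libraries, with Benjamini-Hochberg adjustment over all genes tested and a threshold of 0.05. It was checked on simulated counts. The members and lists were chosen with earlier results of these data known. Per-library values are given for the 2 most abundant and the most different tested members of each role and for Insig1, Srebf1, Srebf2, Sqle and Abca1; of the other pathway genes the 3 with the smallest p are named. Whether libraries are separate animals or cultures is not stated, and the p-values measure only a spread between libraries that may be technical. Floors of 3 counts cover counting error only. Alternatives were RLE and upper quartile scaling, other filters, DESeq2 1.42.0, limma-voom (limma 3.58.1), a replicate block and fewer libraries.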

Additional observations from a re-analysis of the deposited data

Results flagged for a closer look

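In 56 groups of 5 libraries (28 genes in each diet), 3 held a library far from the others by Dixon's test at the 95% level, and chance gives about 1 in 20. Insig1 was at 92.6 CPM in the SF_HFD library 2, against 46.0 CPM in the next highest SF_HFD library. In SF_CD library 1 Hmgcs1 reached 667 CPM, and the next SF_CD library had 315 CPM. The same library had the lowest Tm7sf2, 13.5 CPM, and the next lowest of SF_CD had 39.5 CPM.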

How the results depend on the processing

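Under the 18 alternatives, 0 of the cholesterol genes tested (28, or 32 with no filter) and 0 of the other sterol genes tested were called, and the lowest adjusted p of a member was 0.102 (Acat2 with limma-voom). The number of all genes called was 38, against 78 with no filter, 18 with at least 10 counts in at least 5 libraries, 298 with DESeq2, 173 with limma-voom, and 16 to 88 when leaving out 1 library at a time (16 leaving out SF_HFD library 4, 19 for SF_HFD 2, 23 for SF_HFD 5, 24 for SF_CD 4 and 88 for SF_CD 2). The replicate numbers gave no sign of pairing, though the checks cannot show that the libraries were unpaired. With the number as a replicate block 22 genes were called, and deviations correlated best with the same number in 1 of 5 pairs. Of the 18 enzymes, 11 had a negative log2 fold change, against 17 without the libraries under 1000000 counts and 9 to 15 when leaving out 1 library. Their median was -0.16, against -0.44 with limma-voom (16 of 18 negative), -0.39 without the libraries under 1000000 counts, -0.05 with the replicate block and -0.28 to 0.04 when leaving out 1 library.

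Of 504 member values, 59 changed sign, and none of these members was called in any setting; the cause was not tested. Log2 fold changes that changed sign without the libraries under 1000000 counts were -0.33 for Mvk, -0.25 for Mvd, -0.16 for Idi1, -0.33 for Fdps, -0.12 for Sqle, -0.01 for Cyp51, 0.01 for Hsd17b7, -0.37 for Dhcr7, -0.14 for Srebf2, 0.36 for Insig1, 0.34 for Npc1 and -0.01 for Npc2. With limma-voom they were -0.08 for Mvk, -0.31 for Mvd, -0.10 for Idi1, -0.18 for Fdps, -0.14 for Sqle, 0.03 for Hsd17b7, -0.48 for Dhcr7, -0.21 for Srebf2, -0.13 for Stard4 and 0.36 for Npc1. Mvd was at -0.01 with RLE scaling and -0.04 with DESeq2, and Npc1 at 0.01 with upper quartile scaling and 0.05 with no filter. With the replicate block, Msmo1 was at 0.04, Ebp at 0.34 and Npc1 at 0.06. When leaving out 1 library, the range was -0.17 to 0.33 for Mvk, -0.16 to 0.26 for Mvd, -0.07 to 0.24 for Idi1, -0.21 to 0.38 for Fdps, -0.31 to 0.15 for Msmo1, -0.27 to 0.30 for Ebp, -0.14 to 0.39 for Dhcr7, -0.17 to 0.35 for Srebf2 and -0.19 to 0.16 for Npc1. Exon length and the longest transcript gave the same 10 highest genes per length.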
